A study of Mus musculus with 24 samples.

Results

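Predicted genes, whose symbols are Gm followed by a number, and RIKEN clones, whose symbols end in Rik, are the rows of a mouse count table that are listed there without a descriptive name. The transcripts described here are the rows of that kind chosen by their measured mean level, at least 10 CPM over the 12 peritoneal libraries, where CPM is a count scaled to a common column total. There were 134 of them, 69 Gm and 65 Rik symbols, out of 29233 rows with such a symbol and 54658 rows in all. They made up 2.07% of the 6459 rows at or above the limit. The same counts are compared below, so the levels are given as a description. Just inside it lay 0610037L13Rik and Gm43814, at 10.2 CPM each, and 2310001H17Rik at 10.0 CPM, and just outside it 5031425E22Rik at 9.84, 2410004B18Rik at 9.80 and 4921524J17Rik at 9.71 CPM.

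The peritoneal cells came from male C57BL/6 mice of 7 to 12 weeks that received 1 mL of 4% Brewer thioglycollate medium (TGC) i.p., which draws leukocytes into the cavity without infection. Daily i.p. injections of β-nicotinamide mononucleotide (β-NMN, a precursor of NAD+, at 185 mg/kg; 6 mice) or of the saline vehicle (6 mice) began with the TGC, the last one 24 h before sacrifice. The lavage cells, an unsorted and plated mixture, were then exposed to E. coli for 6 h before lysis, in both groups. Hearts and lungs were taken 24 h after cecal ligation and puncture (CLP), which causes a polymicrobial sepsis, from C57BL/6 males of 7 to 12 weeks, both organs from each mouse. These mice received β-NMN at 185 mg/kg (3 mice) or vehicle (3 mice) right after the surgery, and since the last injection also came 24 h before sacrifice, this was a single dose and not the daily course of the peritoneal mice. Unstimulated cells and mice without peritonitis or CLP were not analysed here, and all mice were male.

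A name of this kind says only how a transcript was found. Some of these rows are ordinary protein-coding genes that have been given a proper name elsewhere, some are long non-coding RNAs, which are spliced and polyadenylated but carry no long reading frame, and some are pseudogenes, copies of a gene that no longer make its protein. Antisense transcripts lie on the strand opposite a gene. In activated macrophages many long non-coding RNAs are induced along with the inflammatory genes beside them. In the GENCODE M21 annotation of the mm10 build, 60 of the 134 were protein coding, 44 long non-coding (21 lincRNA, 12 antisense, 9 processed transcripts and 2 from bidirectional promoters), 18 pseudogenes, 9 TEC models (transcribed regions that no experiment has yet assigned to a class), 2 small RNAs, and Gm7072 was not in that annotation. Their median level was 25.2 CPM, and 117 lay under 100 CPM.

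Peritoneal libraries held 31126823 to 112456050 counts, of which the 134 rows took 0.725% to 1.205%, hearts 27319513 to 68523239 counts and lungs 8915366 to 28356786. Vehicle replicate 2 stood apart in both organs by its spread from the other libraries of its group over all genes. The SD of these log2 differences was 0.90 in hearts (0.44 to 0.61 in the others) and 1.62 in lungs (0.47 to 0.92 in the others). The 134 rows took 1.23% of its lung counts, where the other lungs lay between 0.346% and 0.591%. Gm23935, Gm26917 and Gm15564 together took 0.841% of that library. In its heart the 134 rows took 0.328%, within the range of the other hearts (0.295% to 0.412%). Heart markers (Myh6, Tnnt2, Actc1, Nppa, Pln) summed to at most 1.40 CPM and lung markers to at most 2.78 CPM in any peritoneal library. The 8 macrophage markers summed to 9657 to 12529 CPM with β-NMN and 7337 to 14210 CPM with vehicle, with 3 of them called higher (Cd68, Lyz2, Mertk), 1 lower (Cd14) and 4 not called. Several markers of other cells did move with the groups. Neutrophil markers summed to 328 to 427 CPM with β-NMN against 500.1 to 939.7 CPM with vehicle (6 of 9 lower, 1 higher, 2 not tested). Most of this sum was Csf3r (294.7 to 399.2 against 399.3 to 648.5 CPM), while S100a8 lay at 1.89 to 5.64 against 52.9 to 137.5 CPM. T or NK cell markers summed to 7.60 to 13.8 against 15.9 to 84.8 CPM (6 of 6 lower). Both monocyte markers were lower (4.30 to 9.63 against 13.5 to 38.6 CPM), 3 of 5 dendritic cell markers were lower and 1, Cd209a, higher (14.6 to 16.2 against 31.4 to 53.5 CPM in sum), while the 3 red cell markers were higher (39.6 to 119.7 against 2.72 to 31.9 CPM). Of the 6 resident macrophage markers 4 were higher and 2 lower (53.4 to 159.1 against 51.6 to 72.6 CPM), and 3 of 5 B cell markers were lower (23.0 to 92.6 against 38.7 to 191.2 CPM). Mesothelial markers (3 of 5 lower, 1 not tested, 1.43 to 4.49 against 2.25 to 15.3 CPM), mast cell markers (1 of 4 lower, 56.5 to 127.7 against 94.7 to 256.5 CPM) and eosinophil markers (1 of 4 higher, 2 not tested, 13.5 to 60.9 against 8.58 to 32.4 CPM) also had called members. Their part in the differences given below was not tested. In bulk samples such as these, fewer cells of a type and less RNA per cell cannot be told apart.

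All 134 rows passed the low-count filter in peritoneal cells. Of these, 64 were called, that is, had an adjusted p below 0.05 in edgeR's quasi-likelihood test of β-NMN against vehicle with Benjamini-Hochberg adjustment over all genes. This was 47.8% of the rows, where 51.6% of all 14985 genes tested were called and 59.2% of the 6325 other genes at 10 CPM or more. Of the 64, 42 were higher with β-NMN and 22 lower, beside 23.7% and 27.9% of all genes. As a median, the 134 rows had a log2 fold change of 0.24, beside -0.02 over all genes tested and 0.03 over the other genes at 10 CPM or more, and 87 of the 134 lay above 0 (64.9%, beside 48.5% of all genes and 52.3% of those other genes). Against the other genes at 10 CPM or more, the share called higher was close (31.3% of the rows and 30.2% of those genes) and the share called lower was smaller (16.4% and 29.0%), differences that were not tested. By library, the median deviation of the rows from their vehicle means ran from -0.17 to 0.16 (log2) with vehicle and from 0.08 to 0.29 with β-NMN, so the groups overlapped.

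Part of the count came with the rule itself. A row that reached the limit through only one treatment mean had to differ between the groups, and 20 of 25 such rows were called. Of the 109 rows at 10 CPM or more in both means, 44 were called (40.4%), 32 higher and 12 lower, with a median log2 fold change of 0.24. Changes of more than 2-fold in called rows numbered 9 upward and 12 downward, together 15.7% of the rows beside 18.6% of all genes and 11.3% of the other genes at 10 CPM or more. Of these, 6 of the 9 rises and 7 of the 12 falls were in rows under 10 CPM in one treatment mean. In the rows at 10 CPM or more in both means there were 3 rises and 5 falls of that size. The 2 groups of 6 libraries did not overlap in 34 rows (25.4%, beside 26.6% of all genes and 35.8% of the other genes at 10 CPM or more), of which 21 had all β-NMN values above all vehicle values (12.6% of all genes) and 13 had them all below (14% of all genes).

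**Figure D1:**
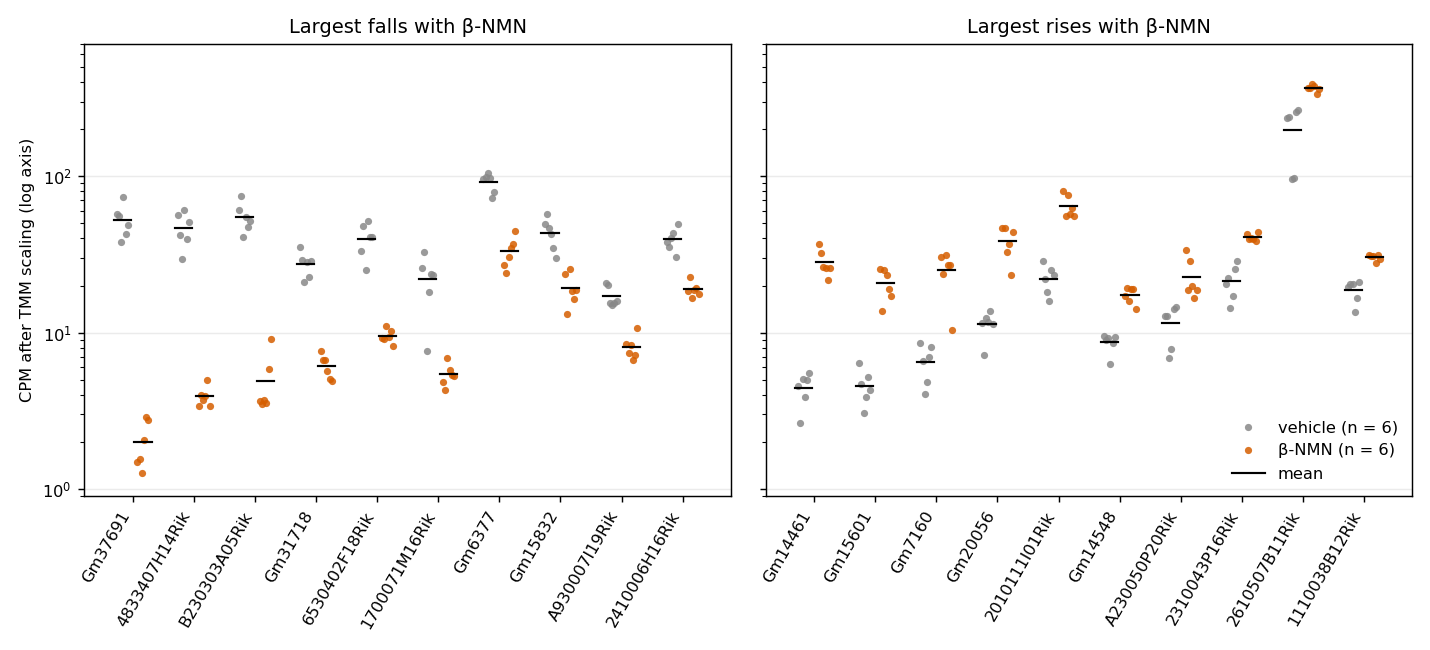
CPM after TMM scaling (log axis) of the 10 largest falls and the 10 largest rises among called rows whose groups did not overlap, with one point per mouse (6 vehicle in grey, 6 β-NMN in orange) and a bar at each mean. Gm37691 spans 37.8 to 74.1 CPM with vehicle and 1.28 to 2.91 CPM with β-NMN, and Gm14461 spans 2.64 to 5.55 and 21.5 to 36.7 CPM.

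The deepest fall was that of Gm37691, a single-exon TEC model on chromosome 1 (193281271 to 193283843, plus strand). Its lowest, median and highest values were 37.8, 52.4 and 74.1 CPM with vehicle and 1.28, 1.81 and 2.91 CPM with β-NMN. Every β-NMN value was thus more than an order of magnitude below every vehicle value, and the log2 fold change was -4.74 ± 0.23 (SE, n = 6 per group; edgeR adjusted p 4.19e-09). The model lies in an intron of Lamb3, a chain of the basement membrane protein laminin, on the same strand, and 8054 bases from G0s2, an inhibitor of the lipase that opens stored triglyceride. Lamb3 fell by 4.10 ± 0.29 and G0s2 fell by 5.54 ± 0.36 on the log2 scale.

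The lincRNA 4833407H14Rik (chromosome 19, 53460622 to 53462723, plus strand) had no protein-coding gene within 10 kb. It measured 29.4, 46.5 and 60.8 CPM (lowest, median, highest) with vehicle and 3.41, 3.84 and 4.95 CPM with β-NMN. The groups stood far apart, with a log2 fold change of -3.58 ± 0.17 (edgeR adjusted p 4.19e-09). B230303A05Rik, a transcribed pseudogene on chromosome 13 whose model overlaps Inhba on the other strand, ranged from 40.9 to 74.9 CPM with vehicle and from 3.48 to 9.17 CPM with β-NMN (-3.50 ± 0.25, adjusted p 8.29e-08 in edgeR). Inhba, which encodes the subunit of activin A, was itself lower, at a mean of 3060 CPM with vehicle and 672 CPM with β-NMN (-2.19 ± 0.23).

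Further falls of about 4-fold were non-coding. Gm31718, a lincRNA on chromosome 8, measured 20.9, 28.5 and 35.1 CPM with vehicle and 4.91, 6.21 and 7.67 CPM with β-NMN (-2.16 ± 0.15, edgeR adjusted p 5.26e-08). 6530402F18Rik on chromosome 2 measured 25.2, 40.9 and 51.3 CPM against 8.19, 9.36 and 11 CPM (-2.07 ± 0.15, edgeR adjusted p 9.82e-08). No value of either row crossed between the groups. 6530402F18Rik lies on the same strand as Ntng2, a netrin family membrane protein, and shares 10.1% of its exon bases with that gene, which fell by 3.24 ± 0.17 on the log2 scale from a mean of 200.6 to 21.2 CPM.

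The antisense row 1700071M16Rik had one vehicle library apart from the rest. Vehicle replicate 3 measured 7.65 CPM where the other 5 lay between 18.3 and 33.0, and the β-NMN values ran from 4.29 to 6.88 CPM (-2.03 ± 0.26, edgeR adjusted p 1.47e-05). The gene on the opposite strand is Pla2g7, the enzyme that degrades platelet-activating factor, at -0.52 ± 0.11. The remaining 4 of the 10 largest falls among called rows whose groups did not overlap were about 2- to 3-fold in size. Gm6377 on the X chromosome, which is annotated as protein coding, had a mean of 91.5 ± 12.4 CPM (SD) with vehicle and 33.0 ± 7.5 CPM with β-NMN, while Sh3bgrl, which overlaps it on the same strand, rose by 0.56 ± 0.09. Gm15832 (-1.17 ± 0.17) shares 38.6% of its exon bases with Rnf149, a ubiquitin ligase that fell by 1.34 ± 0.15 and had its own row in the table. The antisense row A930007I19Rik fell by 1.07 ± 0.13 and 2410006H16Rik fell by 1.06 ± 0.11.

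The rises were led by Gm14461, a lincRNA on chromosome 2 (78237547 to 78302230, plus strand). It measured 2.64, 4.76 and 5.55 CPM with vehicle and 21.5, 26.1 and 36.7 CPM with β-NMN. Each β-NMN value was above each vehicle value, by 2.66 ± 0.18 in log2 (edgeR adjusted p 4.24e-08). Gm15601, antisense to Ddhd1 on chromosome 14, went from 3.05 to 6.38 CPM with vehicle to 13.7 to 25.3 CPM with β-NMN (2.17 ± 0.19, edgeR adjusted p 4.45e-07). Ddhd1, a phospholipase A1, rose as well, by 1.31 ± 0.10.

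Gm7160 (chromosome 1) begins 124 bases from the start of Zcchc2 and runs the other way. It measured 4.07, 6.78 and 8.63 CPM with vehicle and 10.4, 27.1 and 31.3 CPM with β-NMN (1.94 ± 0.24, edgeR adjusted p 1.39e-05). The lowest β-NMN value was that of replicate 6, and the other 5 lay between 23.8 and 31.3 CPM. Zcchc2 rose less, by 0.38 ± 0.11.

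Among the protein-coding rows the largest rise was that of 2010111I01Rik, now named Aopep, a zinc aminopeptidase. It measured 15.8, 22.7 and 28.6 CPM with vehicle and 55.7, 60.3 and 79.96 CPM with β-NMN (1.55 ± 0.14, edgeR adjusted p 9.37e-07). All β-NMN libraries were higher by a clear gap. Fancc, on its other strand, was lower by 0.40 ± 0.10. A230050P20Rik, now Shfl, an interferon-induced protein that blocks ribosomal frameshifting of viruses, went from 6.88 to 14.5 CPM to 16.8 to 33.8 CPM (0.99 ± 0.22).

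2610507B11Rik had the highest mean CPM of the called rows. Its vehicle values fell in a lower pair, replicates 3 and 4 at 95.8 and 97.2 CPM, and a higher set of 4 at 236 to 266 CPM, with the β-NMN values above both at 333 to 386 CPM (0.88 ± 0.23, edgeR adjusted p 0.0055). 1110004F10Rik, the small acidic protein gene, rose with little spread, from 45.1 to 53.6 CPM to 69.9 to 83.6 CPM (0.61 ± 0.07, edgeR adjusted p 7.63e-06). Completing the 10 largest rises among called rows whose groups did not overlap were Gm14548 (1.01 ± 0.12), 2310043P16Rik (0.93 ± 0.14) and 1110038B12Rik (0.71 ± 0.10).

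**Figure D2:**
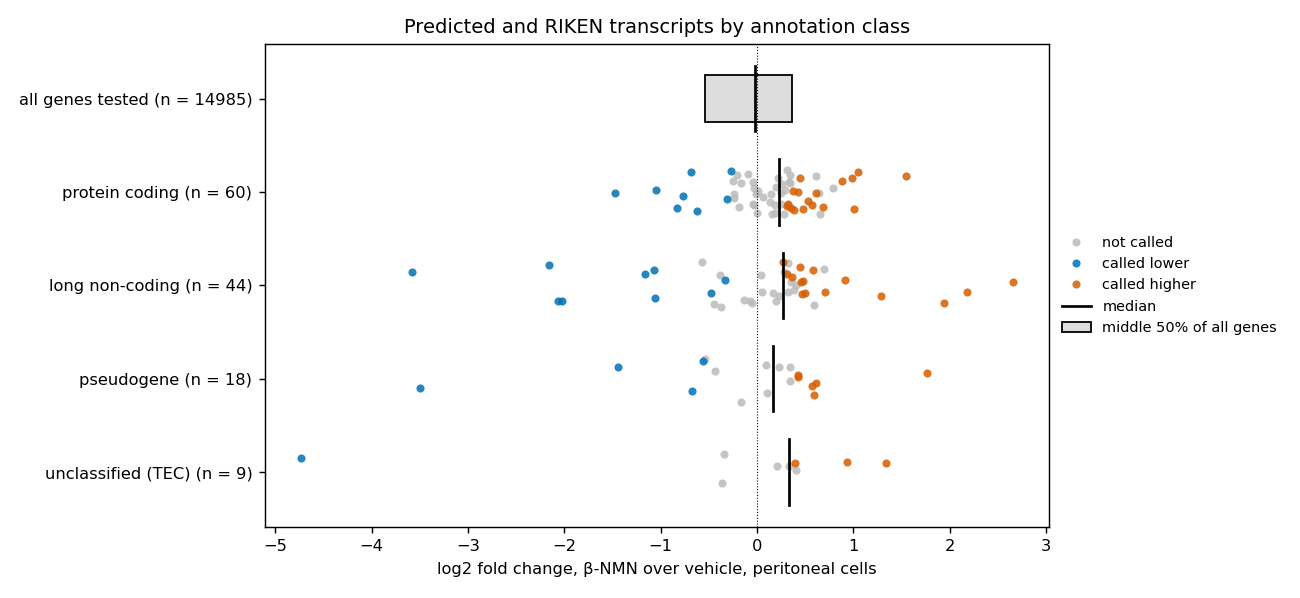
Log2 fold change of β-NMN over vehicle in peritoneal cells for 131 of the 134 rows by annotation class (one point per row, coloured by call, vertical bar at the class median), with the interquartile range of all 14985 genes as a box from -0.54 to 0.36. The class medians lie between 0.16 and 0.33, and of the 10 rows with changes beyond 1.6 in size, 9 are under 10 CPM in one treatment mean.

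By class, 24 of 44 long non-coding rows were called (15 higher, 9 lower), 10 of 18 pseudogenes (6 and 4), 25 of 60 protein-coding rows (17 and 8) and 4 of 9 TEC models (3 and 1), beside the 51.6% of all genes. Neither small RNA was called, and Gm7072 was higher (0.34 ± 0.09). More than 2-fold changes were seen in 11 long non-coding and 5 protein-coding rows, of which 3 and 3 were at 10 CPM or more in both treatment means. Of the 64 called rows, 23 changed by less than 0.5 in log2, so many of the calls were of modest size. Of the known long non-coding RNAs listed for naming, 1 was among the rows, 2410006H16Rik, which fell (given above). A further 3 non-coding RNAs with a described role were picked after their values were seen. 2900097C17Rik, known as Norad, which binds Pumilio proteins, went from a mean of 87.6 to 131 CPM (0.58 ± 0.10, edgeR adjusted p 0.00023), and 1700020I14Rik, known as Oip5os1 or Cyrano, which directs the destruction of miR-7, from 33.0 to 45.3 CPM (0.46 ± 0.10, edgeR adjusted p 0.002). 1810026B05Rik, now named Chaserr, which overlaps Chd2 on the same strand, was at 0.28 and not called (edgeR adjusted p 0.14), while Chd2, a chromatin remodeller, fell by 0.73 ± 0.17.

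Each row was then set beside its neighbouring protein-coding gene. Of the 134 rows, 49 overlapped a protein-coding gene, 49 more had one within 10 kb and 36 had none. Both partners were tested in 91 pairs. Each row was paired with its overlapping or else its nearest gene, among tested genes that were not themselves in the 134. Where several overlapped, the one of highest level was taken. Gm12185 was thus set beside Olfr56, which rose, and not beside Tgtp1, which fell. In 49 pairs the row was not annotated as protein coding (long non-coding, pseudogene, TEC model or small RNA). Both partners were called in 17 of these, in the same direction in 13 and in opposite directions in 4. Pearson's r of the log2 fold changes over the 49 pairs was 0.76 (Spearman's rho 0.49). In the 42 pairs of a protein-coding row, both were called in 9, 3 in the same direction and 6 in opposite directions, with r at -0.01. The value of 0.76 rested on rows that reached the limit through one treatment mean only, Gm37691, B230303A05Rik and 6530402F18Rik among them. In the 36 of the 49 pairs whose row was at 10 CPM or more in both means, r was 0.33 (rho 0.21). Of these, 9 pairs had both partners called, 5 in the same direction and 4 in opposite directions. In the 37 such protein-coding pairs, r was 0.09 (rho 0.19), and of 7 with both partners called, 3 had the same direction and 4 opposite ones. These correlations are over genes of the same 12 libraries, which are not independent replicates, and their difference was not tested. No source used here states whether the counting used strand. Reads of a row and of an overlapping gene may therefore not be separate.

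**Figure D3:**
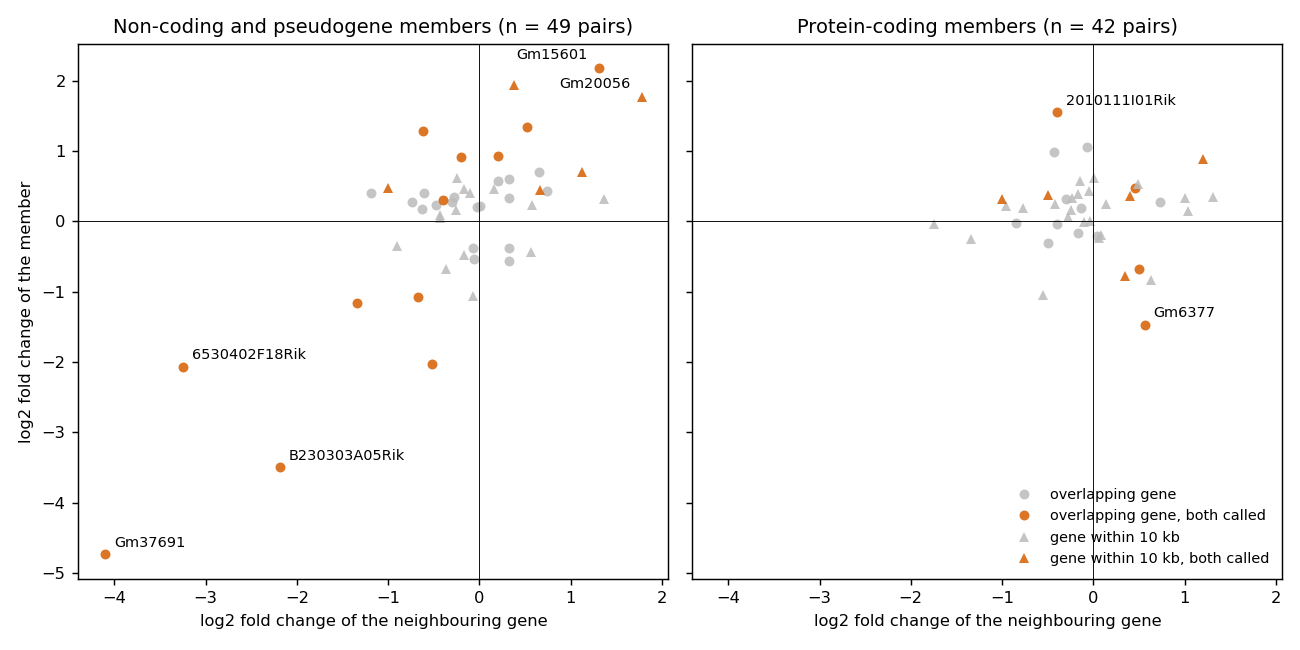
Log2 fold change of each row (vertical axis) against that of its overlapping gene (circles) or nearest gene within 10 kb (triangles), with orange where both were called. The 49 pairs under non-coding and pseudogene also include TEC models and small RNAs, and there are 42 protein-coding pairs. Gm37691, B230303A05Rik and 6530402F18Rik lie at the lower left with the genes they overlap, whereas 2010111I01Rik and Gm6377 lie opposite to theirs.

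Of the 4 opposite non-coding pairs, 3 were antisense to their gene. Gm17275, antisense to the histone gene H3f3a, had means of 12.2 CPM with vehicle and 29.7 CPM with β-NMN (1.28 ± 0.32) where H3f3a fell by 0.62 ± 0.09. 1600020E01Rik, antisense to Pcbp1, rose by 0.91 ± 0.23 where Pcbp1 fell by 0.20 ± 0.07. Gm13571 rose by 0.31 ± 0.11 where Ly75, an endocytic receptor gene, fell by 0.40 ± 0.13. The groups overlapped in all 3 of these rows, with β-NMN replicate 6 the lowest β-NMN library of Gm17275 (7.14 CPM) and of 1600020E01Rik (12.6 CPM). Among pairs that moved together, Gm43068, a TEC model on the strand opposite Oas2, an interferon-induced sensor of double-stranded RNA, rose by 1.34 ± 0.32 beside 0.52 ± 0.14 for Oas2. Gm6377 and 2010111I01Rik, given above, were the largest opposite pairs among the protein-coding rows. Gm17275, 1600020E01Rik, Gm13571 and Gm43068 were named after their values were seen.

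Pseudogene rows raise the question of which locus their reads belong to. Of the 134 rows, 16 had another gene whose transcript matched at 95% identity or more over at least 80% of their longest transcript, and reads of such pairs can be assigned to either. Matches under 100 bases were not counted, so short rows such as Gm23935 and Gm24270, of 57 bases each, could not be among the 16. Of the 16, 8 were called higher and 2 lower (62.5% called, beside 51.6% of all genes) and 6 were not called. Several had a change close to that of the gene they copy. Gm10123 (0.61) went with Ppia, the cyclophilin A gene (0.50; another copy, Gm17494, was at -1.11), Gm12715 (0.43) with Actg1, a cytoplasmic actin (0.34), Gm9844 (0.31) with Tmsb10 (0.44), and Gm1821 (-0.56) with Ubb, a polyubiquitin gene (-0.54). Gm14548 (1.01) and Gm15931 (0.59) match Pira2, a paired immunoglobulin-like receptor gene of myeloid cells, which rose by 0.89, and Gm15931 matches its inhibitory relative Pirb, which rose by 0.33. Both rows also match Lilra6 (-0.06) and Gm15922 (0.24), neither of which was called. Gm6548 and Gm13456, both copies of the translation factor gene Eef1a1 (0.24), stood at -0.67 ± 0.15 (edgeR adjusted p 0.0015) and 0.34 ± 0.15 (not called, edgeR adjusted p 0.071).

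For 2 of the called rows, Gm10076 and Gm20056, the gene they copy was not called. Gm10076 is 99.5% identical to Rpl41, a ribosomal protein gene, and had a mean of 16.5 ± 2.9 CPM (SD) with vehicle and 23.3 ± 3.9 CPM with β-NMN (0.50 ± 0.13, edgeR adjusted p 0.005), with the groups overlapping, while Rpl41 was at 0.14 (edgeR adjusted p 0.37). Gm20056 is a processed pseudogene on chromosome 16 (32408536 to 32409054, plus strand) whose 519 bases align without a gap to bases 67 to 585 of the 585-base coding sequence of Chp1, a calcium-binding partner of sodium-proton exchangers on chromosome 2. The transcripts are 97.5% identical, with 13 differences. A 90-base stretch that holds 6 of them is shown to make visible what tells the copies apart, from base 375 to 464 of Gm20056 and from base 441 to 530 of the Chp1 coding sequence (GENCODE M21, 5′ to 3′). Capitals mark the bases that differ.

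Gm20056: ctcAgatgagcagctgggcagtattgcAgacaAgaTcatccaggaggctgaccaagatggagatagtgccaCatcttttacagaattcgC

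Chp1: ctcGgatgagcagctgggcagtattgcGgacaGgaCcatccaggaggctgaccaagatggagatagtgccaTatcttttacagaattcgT

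Gm20056 measured 7.15, 11.6 and 13.8 CPM with vehicle and 23.3, 40.5 and 46.8 CPM with β-NMN (1.76 ± 0.18, edgeR adjusted p 1.87e-06). No value overlapped. Chp1 had means of 141.7 and 122.6 CPM and was not called (-0.21 ± 0.09, edgeR adjusted p 0.063). Tm4sf19, a tetraspan membrane protein of macrophages and osteoclasts, lies 309 bases from Gm20056 on the same strand and rose by 1.78 ± 0.17, from a mean of 12.5 to 42.8 CPM. In hearts and lungs Gm20056 stayed at means of 0.094 and 0.121 CPM.

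Interferon-inducible GTPases, which attack the membranes around intracellular microbes, include several genes that kept a Gm number. Of the 7 in the list used here, 4 were among the 134 rows. Gm12250, also known as Irgb10, measured 202, 282 and 345 CPM with vehicle and 163, 176 and 348 CPM with β-NMN. Of its β-NMN values, 5 lay between 163 and 186 CPM, all below the lowest vehicle value, and replicate 6 was the highest of the 12 libraries. With it the difference was -0.43 ± 0.18 and not called (edgeR adjusted p 0.059), and without it the log2 fold change was -0.62 and called (edgeR adjusted p 0.00076). Gm12250 was also called with the replicate number as a block (edgeR adjusted p 0.0195) and without vehicle replicate 4 (0.038). The same held with every row that had a count tested (0.029) and with a term for the 5 larger libraries against the other 7 (0.045). Over all alternatives to this fit the adjusted p of Gm12250 lay between 0.00076 and 0.15.

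Gm12185 and Gm5431, which are neighbours of each other on chromosome 11, had the same β-NMN library highest. Gm12185 measured 15.6 to 18.8 CPM in 5 β-NMN libraries, 42.2 CPM in replicate 6 and 17.03 to 45.4 CPM with vehicle (-0.68 ± 0.27, edgeR adjusted p 0.049). That call did not survive leaving out any one of vehicle replicates 1, 2, 5 and 6 and β-NMN replicates 1 to 5, and without β-NMN replicate 6 the change was -0.96 with an adjusted p of 0.0021. Over all alternatives its adjusted p lay between 0.0013 and 0.12. Its model overlaps several genes, of which Tgtp1, another GTPase of this kind, fell by 1.19 ± 0.31, Olfr56 rose by 0.50 ± 0.17, and Psme2b (-0.03) and 9930111J21Rik1 (-0.02) were not called. Gm5431 measured 125 to 194 CPM with vehicle and 139 to 158 CPM in 5 β-NMN libraries, with 277 CPM in replicate 6, and its log2 fold change was -0.00 ± 0.18. It has near-identical copies in 9930111J21Rik1 and 9930111J21Rik2. Gm4951 was higher, from 11.4, 32.3 and 37.7 CPM to 33.1, 43.9 and 56.8 CPM (0.69 ± 0.26, edgeR adjusted p 0.038), with the groups overlapping and the call lost without vehicle replicate 3 or 5 or β-NMN replicate 3 or 6, or with depth class (the 5 larger libraries against the other 7) as a term (adjusted p 0.052 to 0.068; 0.00052 to 0.068 over all alternatives). In all 4 rows, vehicle replicates 3 and 4 were the lowest vehicle libraries.

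The promoters of 3 of these rows are shown because interferon genes are commonly switched on through an interferon-stimulated response element (ISRE). The letters searched were TTTC, any 2 bases and TTTC again, on either strand, in capitals below, in RefSeq windows from 250 bases before to 50 after the start (GRCm38.p6).

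Gm12250, chr11:58183593-58183892, plus strand: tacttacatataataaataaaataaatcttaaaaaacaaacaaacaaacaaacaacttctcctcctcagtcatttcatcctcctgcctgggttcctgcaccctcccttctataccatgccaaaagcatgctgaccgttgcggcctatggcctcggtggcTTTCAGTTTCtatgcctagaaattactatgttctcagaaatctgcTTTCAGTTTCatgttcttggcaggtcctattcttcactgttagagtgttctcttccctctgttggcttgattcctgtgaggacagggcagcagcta

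Gm12185, chr11:48927133-48927432, minus strand: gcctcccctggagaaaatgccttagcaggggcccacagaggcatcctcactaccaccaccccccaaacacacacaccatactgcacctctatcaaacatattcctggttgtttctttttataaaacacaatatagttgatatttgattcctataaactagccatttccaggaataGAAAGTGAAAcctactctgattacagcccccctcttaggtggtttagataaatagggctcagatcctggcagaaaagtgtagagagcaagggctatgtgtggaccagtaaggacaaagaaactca

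Gm5431, chr11:48902103-48902402, minus strand: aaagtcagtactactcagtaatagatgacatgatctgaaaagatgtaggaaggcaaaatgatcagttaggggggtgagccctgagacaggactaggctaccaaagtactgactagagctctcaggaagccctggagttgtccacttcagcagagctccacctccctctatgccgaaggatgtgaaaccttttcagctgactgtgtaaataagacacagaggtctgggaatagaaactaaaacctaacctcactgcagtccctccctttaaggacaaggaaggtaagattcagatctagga

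There are 2 matches in the Gm12250 window, 1 in the Gm12185 window and none in that of Gm5431. RefSeq windows were found by symbol or newer name for 73 of the 134 rows, 90 windows in all. For Gm15832 the name found was Rnf149, so any window counted for it is that of Rnf149. The letters were in 9 of these (10%), where 3.44% of all 32851 windows did. The 9 were spread over rows called higher (2 windows), called lower (3) and not called (4). The AP-1 letters TGANTCA were in 4 of the 90 windows (4.44%; 7.81% of all) and the NF-kB consensus in 6 (6.67%; 4.51% of all). These are matches of letters, not sites of binding.

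The row with the most counts was Gm8995, a transcribed pseudogene on chromosome 7 (106504239 to 106511671, minus strand), and its level was about equal in both groups. It measured 1205, 2225 and 2421 CPM with vehicle and 1841, 2030 and 2892 CPM with β-NMN (0.10 ± 0.17, edgeR adjusted p 0.64). Here too the lowest vehicle values were those of replicates 3 and 4 and the highest β-NMN value that of replicate 6. Gm1966, an unprocessed pseudogene farther along the same strand (106596743 to 106604035), differed from it. Its 6 β-NMN values lay between 48.0 and 80.5 CPM and 5 of its vehicle values between 113 and 269 CPM, with vehicle replicate 3 at 49.0 CPM (-1.44 ± 0.29, edgeR adjusted p 0.00082). Gm20559 (0.37 ± 0.13) and 9530068E07Rik (0.35 ± 0.10) were the other abundant rows to be called. The call of Gm20559 was lost with the replicate block (edgeR adjusted p 0.057) and without vehicle replicate 5 or 6 or β-NMN replicate 1 (0.053 to 0.055; 0.0036 to 0.057 over all alternatives). B430306N03Rik was at 0.34 ± 0.15 and not called (edgeR adjusted p 0.076). It was called with the replicate block (edgeR adjusted p 0.021) and with upper-quartile factors (0.037). It was also called without vehicle replicate 1 (0.022) or β-NMN replicate 4 (0.043). CPM takes no account of transcript length, so these levels rank rows by counts and not by molecules.

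**Figure D4:**
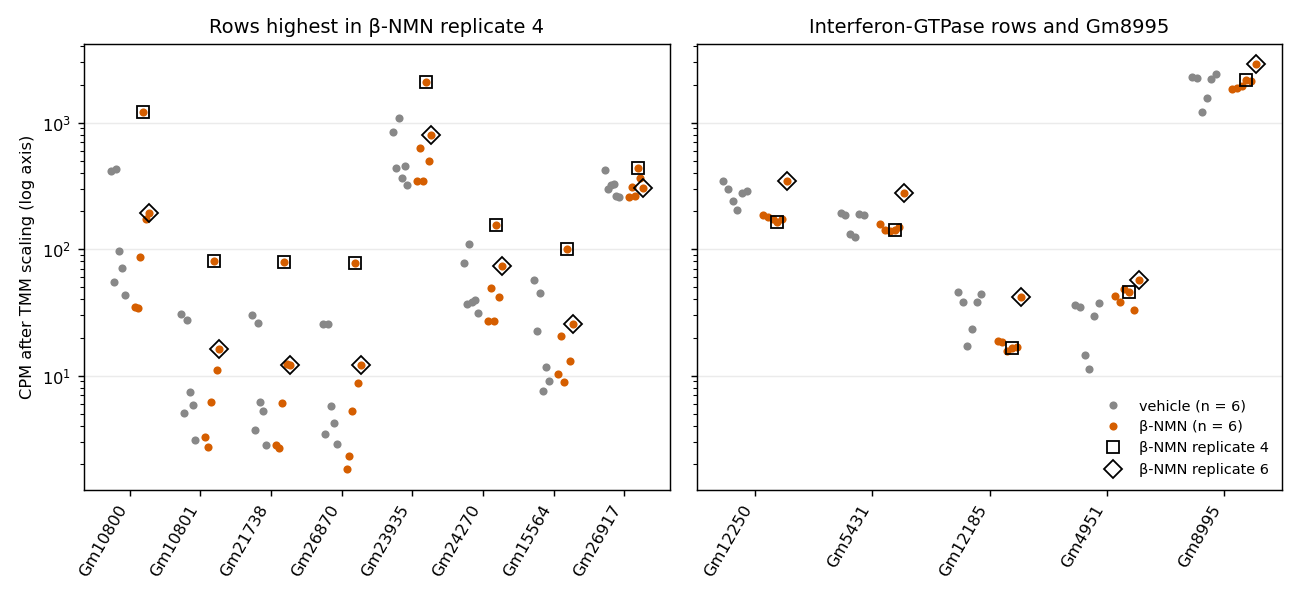
CPM after TMM scaling (log axis) in the 12 peritoneal libraries of 8 rows that were highest in β-NMN replicate 4 (left) and of the interferon GTPase rows and Gm8995, in which β-NMN replicate 6 was the highest β-NMN library (right), with vehicle in grey, β-NMN in orange, replicate 4 in squares and replicate 6 in diamonds. Gm10800 reaches 1205 CPM in replicate 4, where the other β-NMN libraries lie between 34.0 and 192 CPM.

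A group of rows varied from library to library rather than by treatment. Gm10800 and Gm10801, which lie 2464 bases apart on chromosome 2, and Gm21738 and Gm26870 were highest in β-NMN replicate 4 and, among the vehicle libraries, in replicates 1 and 3. Gm10800 measured 43.7, 83.4 and 427 CPM with vehicle and 34.0, 130 and 1205 CPM with β-NMN, so that its SE of 0.84 exceeded its log2 fold change of 0.65, which was -0.79 without β-NMN replicate 4. Gm23935 and Gm24270, annotated as small RNAs, are identical over all 57 bases and were highest in the same library, Gm23935 at 2103 CPM where the other β-NMN libraries lay between 343 and 792 CPM. Their shared sequence is given because reads from it cannot tell the loci on chromosomes 16 and 9 apart.

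Gm23935 and Gm24270: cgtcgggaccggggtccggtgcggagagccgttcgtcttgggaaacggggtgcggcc

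The rRNA-like rows Gm26917 (0.04 ± 0.15) and Gm15564 (0.23 ± 0.62) had the same library highest, at 438 and 99.3 CPM. None of these 8 rows was called. β-NMN replicate 4 was also the library in which the 134 rows took the largest share of counts, 1.205% where the other peritoneal libraries lay between 0.725% and 0.907%.

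The other lists gave few members. No nuclear copy of a mitochondrial gene (0 of 7), stefin-like gene (0 of 5) or SIRP-like gene (0 of 2) reached the limit. Of 10 rows with a known protein, 4 did. Besides 2010111I01Rik and 1110004F10Rik these were 1810058I24Rik, which carries the reading frame of a mitochondrial micropeptide and rose by 0.45 ± 0.11 (edgeR adjusted p 0.0036), and 2410015M20Rik, the Micos13 subunit of the complex that shapes mitochondrial cristae, at 0.18 ± 0.12 (edgeR adjusted p 0.23). Without vehicle replicate 3, 2410015M20Rik was at 0.33 and called (edgeR adjusted p 0.015). Of 5 known long non-coding RNAs, 2410006H16Rik alone was a member.

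In the organs, none of the rows was called. Of the 134 rows, 110 could be tested in hearts and 118 in lungs, and edgeR called 0 in both (background 0% of 16245 and 0% of 17008 genes). The paper, also using edgeR, reported many genes at an adjusted p below 0.05 in both organs. Why the outcomes differ was not tested. At an unadjusted p below 0.05 there were 8 rows in hearts (7.27%, beside 11.3% of all genes) and 1 in lungs (0.847%, beside 1.77%). DESeq2 called 283 genes in hearts and 9 in lungs, with 0 of these rows among them, and put 11 heart rows (10%, beside 13.6% of all genes) and 6 lung rows (5.08%, beside 3.08%) at an unadjusted p below 0.05. With 3 mice per group the median SE of a row was 0.28 in hearts and 0.43 in lungs against 0.15 in peritoneal cells with 6.

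The smallest p in hearts belonged to 2310022A10Rik, which measured 36.0, 43.7 and 44.2 CPM with vehicle and 51.5, 55.8 and 60.6 CPM with β-NMN (0.44 ± 0.13, edgeR adjusted p 0.44). Gm1966 (-0.96 ± 0.28) and Gm6377 (-0.82 ± 0.26), both lower in peritoneal cells, came next, at 1.11 to 1.29 against 0.517 to 0.775 CPM and at 1.17 to 1.37 against 0.647 to 0.819 CPM (edgeR adjusted p 0.44 for both). In lungs, Gm4951 measured 11.5, 12.7 and 17.3 CPM with vehicle and 4.83, 7.25 and 8.99 CPM with β-NMN (-0.97 ± 0.33, edgeR adjusted p 0.97), a sign opposite to that in peritoneal cells. In hearts it was at -0.90 ± 0.34 (edgeR adjusted p 0.44). Gm44250 followed with 77.7 to 83.2 against 95.7 to 127.9 CPM, and Gm26917 with vehicle replicate 2 far above the rest, at 1045 CPM. Groups did not overlap for 22 rows in hearts (20%, beside 23.1% of all genes), 8 higher (11.6% of all genes) and 14 lower (11.5%). In lungs they did not overlap for 7 rows (5.93%, beside 8.21%), 5 higher (4.47%) and 2 lower (3.75%). Without vehicle replicate 2, edgeR again called 0 rows in either organ, and the rows at an unadjusted p below 0.05 numbered 11 in hearts (9.73%, beside 10.3% of all genes) and 6 in lungs (4.96%, beside 4.31%). In hearts they numbered 15 without vehicle replicate 1 (13.4%, beside 12.4%), 4 without β-NMN replicate 1 (3.45%, beside 5.21%) and 3 without β-NMN replicate 2 (2.68%, beside 5.49%). In lungs they numbered 5 without vehicle replicate 1 (4.13%, beside 2.64%) and 4 without vehicle replicate 3 (3.31%, beside 3.75%).

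The rows called in peritoneal cells showed no shared direction in the organs. Of the 64, 51 were tested in hearts and 26 had the same sign there, and 57 were tested in lungs, 32 with the same sign. Several of the largest peritoneal changes concerned rows that the organs barely held. Gm14461 had 0 counts in 5 of 6 heart and 5 of 6 lung libraries, 4833407H14Rik lay at or below 0.226 CPM in every heart library and at 1.28 to 7.66 CPM in lungs, and Gm37691 at 1.30 to 7.56 CPM in hearts and 0.147 to 1.04 CPM in lungs.

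**Figure D5:**
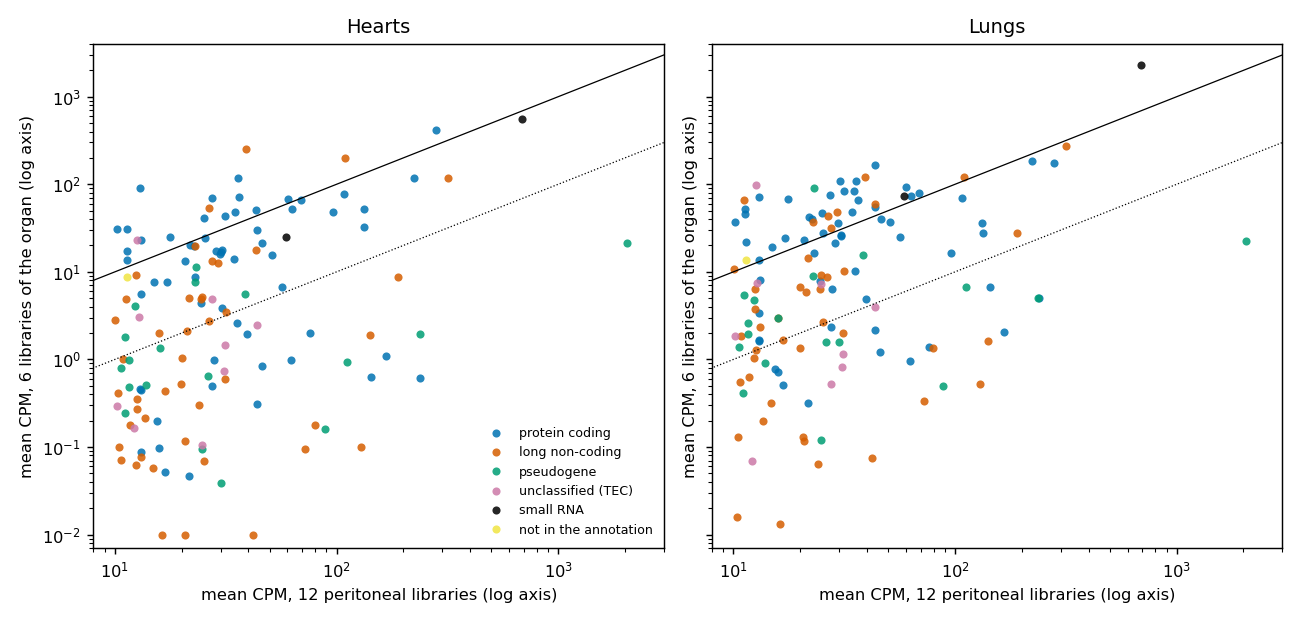
Mean CPM by column total of the 134 rows in 6 heart libraries (left) and 6 lung libraries (right) against the mean of the 12 peritoneal libraries, both axes logarithmic, coloured by annotation class, with a solid line at equal levels, a dotted line at 10-fold lower and values under 0.01 CPM drawn at 0.01. Gm8995 lies far to the right, at 2049 CPM in peritoneal cells and 21.1 and 22.2 CPM in the organs.

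Levels set across tables normalized apart are only approximate, but the differences between tissues were large. Of the 134 rows, 44 were at least 10 times higher in peritoneal cells than in either organ, namely 19 of 44 long non-coding rows, 9 of 18 pseudogenes, 4 of 9 TEC models and 12 of 60 protein-coding rows. Under 1 CPM in both organs were 24 of the 134. Since the rows were chosen for their level in peritoneal cells, a lean in this direction was built in. Of the 44, 12 were called higher with β-NMN and 8 lower (45.5% called, beside 51.6% of all genes), and 24 were not called. Gm13571, antisense to Ly75, had a peritoneal mean of 42.1 CPM and means of 0.0024 and 0.076 CPM in heart and lung, and 4930430E12Rik had 129 against 0.10 and 0.53 CPM. Both rose moderately with β-NMN, by 0.31 ± 0.11 and 0.46 ± 0.11. The GTPases Gm12250 (237 CPM, and 1.98 and 5.05 in the organs) and Gm5431 (166 CPM, and 1.08 and 2.06) were also mainly peritoneal.

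A further 18 rows were lower in peritoneal cells than in both organs. Norad (2900097C17Rik) had means of 110 CPM in peritoneal cells, 198 in hearts and 121 in lungs, and Oip5os1 (1700020I14Rik) had 39.1, 253 and 122 CPM. Both of these conserved RNAs were thus present in all 3 tissues, and both were called in peritoneal cells only, a difference between tissues that was not tested.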

How the data were processed

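The members and gene lists were chosen with earlier results of these data known. For each tissue the authors deposited raw read counts per gene symbol. Their reads came from poly(A) RNA. STAR (2.7.3a in the submitters' processing notes) placed them on mm10, and featureCounts 2.0.0 counted them per gene. The annotation, the strand setting and the handling of reads with several matches are not given in the sources used here.

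One model per tissue was fitted in edgeR 4.0.16 (R 4.3.3, filterByExpr, TMM factors, estimateDisp, older quasi-likelihood form). The study's methods also name edgeR, in an earlier version, with TMM, estimateDisp and a quasi-likelihood F-test, but state no low-count filter. Adjusted p are Benjamini-Hochberg values over all genes tested. SEs are the log2 fold change divided by the root of F and are approximate. CPM values are TMM-scaled unless given by column total. Classes and coordinates are from GENCODE M21, current names and promoters from RefSeq GRCm38.p6, and near-identical copies from blastn 2.17.0 (95% identity over 80% of the longest transcript, matches of at least 100 bases). Neighbours are protein-coding genes overlapping a row or within 10 kb.

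Named rows were the 10 largest rises and 10 largest falls among called rows without overlap, the 10 of highest level, members of the fixed lists, the smallest p in each annotation type and in each organ, the 3 largest p in peritoneal cells and the rows beside the limit. Others are named as examples. Alternatives were the size factors of DESeq2, upper-quartile factors, the newer quasi-likelihood form, DESeq2 1.42.0, testing every row with a count, the replicate number as a block, limits of 5 and 20 CPM, leaving out rows with copies and leaving out each library, and, added after seeing the data, depth class as a term and only rows at 10 CPM in both means. The fits were tested on simulated counts. Both of the later β-NMN hearts carry the number 3, so the mouse code shared with lung 2 decided which was replicate 2. Organ samples were taken as CLP from their titles and tissue labels, although the source label names thioglycollate.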

Additional observations from a re-analysis of the deposited data

Results flagged for a closer look

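Among the 46 named rows, the 6 vehicle and the 6 β-NMN peritoneal values were each screened for a single library far from the others, and 14 of 92 groups had one by Dixon's criterion, which flags about 1 in 20 groups by chance. β-NMN replicate 6 was the library in question for Gm7160 (10.4 CPM, low), and on the high side for Gm8995 (2892 CPM), Gm12250 (348 CPM), 9530068E07Rik (284 CPM), Gm5431 (277 CPM), 4930402H24Rik (42.7 CPM) and Gm12185 (42.2 CPM). β-NMN replicate 4 was the one for Gm23935 (2103 CPM), Gm10800 (1205 CPM) and Gm15564 (99.3 CPM). The vehicle libraries in question were replicate 2 for Gm20056 (7.15 CPM), replicate 4 for Gm14548 (6.35 CPM), replicate 3 for 2410015M20Rik (16.4 CPM) and replicate 5 for Gm7072 (8.90 CPM).

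1110038B12Rik moved in opposite directions in 2 tissues, with no overlap between groups in either. It was higher with β-NMN in peritoneal cells (0.71, 27.9 to 31.5 against 13.6 to 21.1 CPM) and lower in hearts (-1.23, 2.62 to 2.85 against 3.46 to 11.6 CPM, edgeR adjusted p 0.44). The heart value rested on vehicle replicate 2, at 11.6 CPM where the other vehicle hearts had 4.16 and 3.46 CPM, and was -0.49 without it (edgeR adjusted p 0.42, 0.17 to 0.75 over all alternatives). The difference between the tissues was not tested.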

How the results depend on the processing

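The count of 64 called rows in peritoneal cells was within 1.5 times of itself under every other normalization, test and filter tried and when 1 library was left out (60 to 72 called, the most without β-NMN replicate 6, 37 to 50 higher and 19 to 25 lower), and 0 rows were called in hearts and lungs throughout (0 to 0 with 1 library left out). None of the 64 changed sign in any of these fits. The median log2 fold change of the rows lay between 0.23 and 0.31 with 1 library left out. A limit of 5 CPM gave 118 called rows of 219, 76 higher and 42 lower, and a limit of 20 CPM gave 40 of 87, 25 of them higher, since more or fewer rows then belong. With depth class (the 5 larger libraries against the other 7) as a term, chosen after seeing the data, 66 rows were called. The replicate numbers did not pair the samples in peritoneal cells (correlation of same-numbered deviations -0.17 to 0.13) or in lungs (-0.52 to 0.30). In hearts each vehicle sample was closest to the β-NMN sample of its own number, at low correlations of 0.07 to 0.24. With the replicate block 63 rows were called in peritoneal cells, 60 of them among the 64, and 0 in each organ. Of 874 values of the named rows in peritoneal cells under alternatives, 26 (in 6 rows: Gm12185, Gm4951, Gm20559, Gm44250, Gm7072 and 0610037L13Rik) were no longer past the threshold. Another 15 (in 6 rows: Gm12250, B430306N03Rik, Gm43814, 2310022A10Rik, Gm11427 and 2410015M20Rik) came past it. A further 43 changed sign, all 43 in rows that were not called.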
